A study of Mus musculus with 40 samples.

Results

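The 10 genes described here belong to the Wnt signalling pathway and were measured in the myometrium and cervix of mice given human chorionic gonadotropin (hCG) late in pregnancy. They were the ligands Wnt4, Wnt5a, Wnt7a and Wnt7b, the secreted Dickkopf family member Dkk3, and the secreted antagonists Sfrp1 and Sfrp4. The others were the targets and feedback inhibitors Axin2 and Nkd1, and Lef1, a transcription factor of the pathway that is also one of its targets. The genes were picked by name out of the 23079 genes of the count table, by their deposited gene identifiers, and no numeric threshold was applied. Their values in the hCG and PBS libraries were known when they were picked, because Axin2 was lower and Dkk3 higher with hCG in both tissues. All differences between hCG and PBS for these 10 genes are therefore given as descriptions, with a standard error (SE) and without a test. The differences between the tissues were not used in the choice, and they are tested.

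RNA was taken at 18.5 days post coitum from pregnant C57BL/6 mice, an inbred laboratory strain. There were 4 groups of 10 libraries: hCG cervix, PBS cervix, hCG myometrium and PBS myometrium, where PBS (phosphate-buffered saline) was the vehicle and both agents went into the peritoneum. hCG is a glycoprotein hormone of the human placenta that acts through the luteinizing hormone receptor, and the study asked how it changes the transcriptome of these tissues before birth. The sources used here give neither the dose nor how long before collection it was injected. The labels number the libraries but do not say that a number is a mouse, so the p-values measure the spread between these libraries.

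Wnt proteins are secreted lipid-modified ligands that bind Frizzled receptors and, in the canonical branch, LRP co-receptors. This keeps the cytoplasmic protein beta-catenin from being degraded, so that it enters the nucleus and switches on target genes with transcription factors of the TCF/LEF family. Axin2 is among the most widely used readouts of that branch, and its protein feeds back on the pathway by helping to degrade beta-catenin. In the female reproductive tract of the mouse, Wnt4, Wnt5a and Wnt7a are known for their roles in the development of the Müllerian duct and the uterus.

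The windows of 250 bases upstream of annotated transcription starts (RefSeq, GRCm38.p6) are shown for the canonical readout Axin2 and for 2 genes whose counts differed between hCG and PBS in the cervix, the ligand gene Wnt4 and Tnfrsf19, which encodes a receptor of the TNF receptor family and is a known Wnt target. The sequences run 5′ to 3′ on the strand of the gene, the last base being next to the start. Capitals mark the letters CTTTGA, a core of the TCF/LEF motif, or TCAAAG, the same on the opposite strand, and both strands were searched.
Axin2, chr11:108920099-108920348, plus strand: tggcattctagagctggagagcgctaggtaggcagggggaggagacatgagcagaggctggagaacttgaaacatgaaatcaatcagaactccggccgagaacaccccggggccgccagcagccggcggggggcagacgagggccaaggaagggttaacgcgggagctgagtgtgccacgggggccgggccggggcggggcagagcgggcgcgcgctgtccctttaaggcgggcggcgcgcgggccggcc
Wnt4, chr4:137277385-137277634, plus strand: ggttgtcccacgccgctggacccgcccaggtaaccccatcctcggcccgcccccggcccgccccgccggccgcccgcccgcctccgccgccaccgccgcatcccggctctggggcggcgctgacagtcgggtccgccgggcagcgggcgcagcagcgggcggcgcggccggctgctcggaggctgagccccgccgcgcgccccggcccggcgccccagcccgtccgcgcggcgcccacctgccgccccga
Tnfrsf19, chr14:61037988-61038237, minus strand: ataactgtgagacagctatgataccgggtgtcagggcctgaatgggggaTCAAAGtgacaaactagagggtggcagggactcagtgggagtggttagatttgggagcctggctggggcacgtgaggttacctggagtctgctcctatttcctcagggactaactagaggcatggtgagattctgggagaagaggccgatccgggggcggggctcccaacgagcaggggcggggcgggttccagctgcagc
The Axin2 window had 69.2% G and C and the Wnt4 window 85.2%, and neither held the motif. The Axin2 gene as annotated begins at base 108917828, so its window is at a start within the gene, downstream of its 5′ end. No window at that 5′ end was at hand. The Tnfrsf19 window shown is at an annotated start within the gene, downstream of its 5′ end. It had 59.2% G and C and 1 match, which starts 201 bases before that start. The window at the 5′ end of Tnfrsf19, chr14:61046856-61047105, is not printed. It had 50% G and C and no match. Of 32851 such windows over all genes, 13.8% held the motif. Windows were at hand for 5 of the 10 genes, 8 windows in all, and 1 of the 8, at a downstream start of Lef1, held it. No match says only that these letters are not in these windows.

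Total counts ran from 6613775 to 22274244 in hCG cervix, from 7255131 to 25028360 in PBS cervix, from 5449239 to 20603741 in hCG myometrium and from 5933199 to 20108002 in PBS myometrium. Levels are given as CPM, counts scaled to library size, and as CPM per kilobase of exon (RPKM) where genes are compared with each other. Markers of squamous epithelium and smooth muscle split by tissue label. Of the squamous markers, 7 of 7 were higher in cervix than in myometrium in both treatments. Of the smooth muscle markers, 6 of 6 were lower in the cervix of PBS mice and 5 of 6 in that of hCG mice. The myometrium libraries are titled uterus in the count table, and they held other cells too. Their simple epithelium markers had median sums of 1294 CPM (hCG) and 1310 CPM (PBS), against 865.1 and 1317 CPM in cervix. Decidua and trophoblast markers had a median sum of 79.84 CPM in hCG myometrium, with a range from 2.186 to 1345 CPM, the highest in library 1. In PBS myometrium their median sum was 7.105 CPM, with a range from 1.355 to 205.3 CPM. The libraries were not uniform. The cervix libraries fell into 10 deeper and 10 shallower ones. Lars2, a mitochondrial tRNA synthetase gene, took over 1% of the counts in 4 PBS cervix, 1 hCG myometrium and 2 PBS myometrium libraries. The PBS cervix ones were libraries 5, 6, 7 and 8, at 17.5%, 11.7%, 5.89% and 3.51%, and all were among the shallower ones. In hCG cervix 0 libraries were over 1%. Yolk sac markers summed to over 5000 CPM in hCG myometrium libraries 1, 3, 5, 7 and 10 and in PBS myometrium libraries 4, 8 and R3. In hCG cervix, library 5 stood apart with 2305 CPM over the urothelium markers and 24970 CPM over the smooth muscle markers, library 1 with 4241 CPM over the skeletal muscle markers and library 3 with 818 CPM over the adipocyte markers. In whole tissue, fewer cells of a type and less RNA per cell cannot be told apart.

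Among the 10 genes the level per exon length was led by Sfrp4 in myometrium, at 154.8 ± 26.6 RPKM in hCG and 116.3 ± 30.2 RPKM in PBS myometrium (SD, n = 10 each). Wnt5a, Dkk3, Axin2, Wnt4, Nkd1, Sfrp1 and Wnt7b followed in PBS myometrium with mean levels of 13.9, 8.01, 5.66, 4.08, 3.57, 2.17 and 1.87 RPKM. In PBS cervix Dkk3, Sfrp4 and Wnt4 were at 14.9 ± 3.36, 14.6 ± 6.29 and 13.1 ± 6.68 RPKM, which is within their spread of each other. Wnt5a at 8.57 ± 1.97 RPKM and Sfrp1 at 8.23 ± 1.92 RPKM were likewise neighbours within their spread, and Axin2, Wnt7b and Nkd1 averaged 5.01, 3.77 and 1.38 RPKM there. Wnt7a and Lef1 stayed at or under 0.357 RPKM in every group mean.

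Axin2, the readout of the canonical branch, was lower with hCG in both tissues. In cervix it had 7.03 CPM in the lowest, 15.5 in the median and 26.4 CPM in the highest hCG library, against 10.6, 29.1 and 45.9 CPM in the PBS libraries. The groups overlapped, but all 10 hCG libraries lay below the PBS median. The means were 15.3 ± 6.08 CPM in hCG and 27.6 ± 12.2 CPM in PBS cervix, a log2 fold change of -0.84 ± 0.274 (SE). In myometrium the lowest, median and highest levels were 10.2, 13.8 and 28.2 CPM with hCG, against 15.9, 34.1 and 44.2 CPM with PBS. Again the groups overlapped and all 10 hCG libraries lay below the PBS median. The means of 15.6 ± 5.38 CPM in hCG and 31.1 ± 10.6 CPM in PBS myometrium gave a log2 fold change of -0.99 ± 0.206. The estimate was -0.96 ± 0.393 within the deeper cervix libraries and -0.67 ± 0.369 within the shallower ones, and -0.76 ± 0.255 in myometrium without the 8 libraries rich in yolk sac markers. The 5 yolk sac markers summed to between 111.9 and 30780 CPM (median 3361) in hCG and to between 29.5 and 19370 CPM (median 563) in PBS myometrium. Of the 5, 0 passed the edgeR test between treatments, beside 2 of all 14517 genes tested there. With so few genes passing, that count does not show that the yolk sac share was equal, and its part in the Axin2 values was not tested.

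Dkk3 encodes a secreted member of the Dickkopf family, which is named for its Wnt antagonists. It was higher with hCG in both tissues. In cervix the lowest, median and highest levels were 44.3, 63.9 and 202.4 CPM in hCG libraries, against 34.1, 52.7 and 67.7 CPM in PBS libraries. The groups overlapped, 9 of 10 hCG libraries lay above the PBS median, and hCG library 5 stood far above the rest. The means were 78.0 ± 44.9 CPM in hCG and 50.0 ± 11.3 CPM in PBS cervix, with a log2 fold change of 0.65 ± 0.219, which was 0.37 without hCG library 5. In myometrium Dkk3 had 30.6, 39.2 and 64.9 CPM with hCG, against 12.3, 28.6 and 34.4 CPM with PBS. All 10 hCG libraries exceeded the PBS median, although the groups overlapped. The means of 42.1 ± 10.1 CPM in hCG and 26.9 ± 6.79 CPM in PBS myometrium gave a log2 fold change of 0.64 ± 0.156. No single myometrium library moved that value outside 0.54 to 0.68. In cervix it was 0.90 ± 0.388 within the deeper and 0.30 ± 0.194 within the shallower libraries. Markers of other cells differed in cervix too. The 5 urothelium markers summed to between 8.36 and 2305 CPM (median 18.5) in hCG cervix. In PBS cervix they summed to between 6.08 and 61.3 CPM (median 18.0). All 5 passed the edgeR test as higher, but the high sums were in hCG libraries 5, 3 and R3, at 2305, 626.4 and 187.9 CPM. Every other hCG library lay below the highest PBS sum. The 5 leukocyte markers summed to between 93.5 and 305.3 CPM in hCG and to between 54.2 and 159.6 CPM in PBS cervix, and 3 passed as higher. Their part in the cervix values was not tested.

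**Figure D1:**
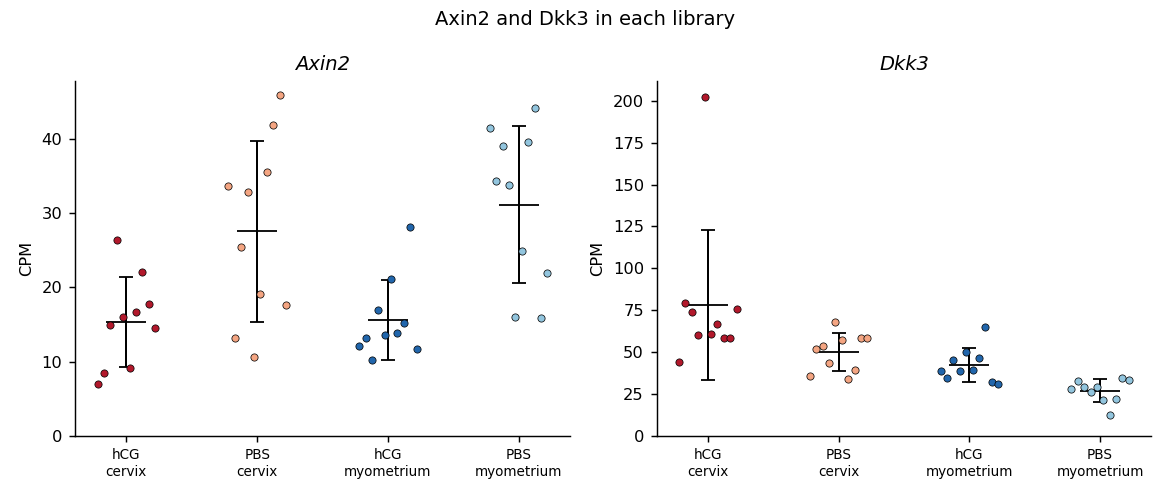
Level of Axin2 (left) and Dkk3 (right) in CPM on linear axes that start at 0, with 1 point per library and bars for mean ± SD of 10 libraries a group. All hCG points of Axin2 lie below the PBS median of their tissue, and the highest Dkk3 point, at 202.4 CPM, is hCG cervix library 5.

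Of the ligands, Wnt4 and Wnt7b were lower with hCG in cervix. Wnt4, needed in mice for the formation of the female reproductive tract, had 16.2, 25.8 and 41.7 CPM in the lowest, median and highest hCG cervix library, against 28.3, 44.3 and 109.8 CPM in PBS cervix. Wnt7b, a ligand of epithelia, had 2.49, 7.39 and 9.46 CPM in hCG cervix, against 5.27, 14.3 and 45.9 CPM in PBS cervix. For both genes the groups overlapped, all 10 hCG libraries lay below the PBS median, and the PBS libraries were spread more widely. Wnt4 averaged 27.3 ± 8.09 CPM in hCG and 54.9 ± 28.01 CPM in PBS cervix, a log2 fold change of -1.002 ± 0.244. Wnt7b averaged 6.87 ± 2.51 CPM in hCG and 18.5 ± 13.3 CPM in PBS cervix, a log2 fold change of -1.43 ± 0.365. In myometrium both estimates were smaller, at -0.25 ± 0.209 for Wnt4 and -0.42 ± 0.243 for Wnt7b, and Wnt4 there averaged 14.5 ± 3.62 CPM in hCG and 17.1 ± 7.12 CPM in PBS libraries. Wnt7b averaged 6.80 ± 2.79 CPM in hCG and 9.14 ± 3.35 CPM in PBS myometrium, and its log2 fold change was -0.13 ± 0.326 without the libraries rich in yolk sac markers. The lncRNA gene AU022754 overlaps Wnt7b and the strand setting of the counting is unknown here, so reads of these genes cannot be told apart.

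The summed markers of squamous epithelium, the lining of the lower cervix, also ran lower in hCG cervix. The 7 markers summed to between 1065 and 12860 CPM (median 5062) in hCG cervix and to between 8243 and 36480 CPM (median 16190) in PBS cervix, and none was at 0 in all libraries of a group. Of the 7, 0 passed the test as higher and 1 as lower with hCG. Krt15 alone of them had a higher median with hCG, at 447.2 CPM against 422.3 CPM in PBS cervix. The 6 simple epithelium markers had a median sum of 865.1 CPM in hCG and 1317 CPM in PBS cervix. Of these 6, 0 passed as higher and 1 as lower. The part of either kind of cell in the values of Wnt4 and Wnt7b was not tested. In myometrium the squamous sum was at most 19.0 CPM.

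Wnt5a, a ligand best known for beta-catenin-independent signalling, was nearly level between treatments. It averaged 67.7 ± 23.5 CPM in hCG and 67.0 ± 15.4 CPM in PBS cervix, with a log2 fold change of 0.02 ± 0.180, and 100.5 ± 16.1 CPM in hCG and 108.9 ± 25.5 CPM in PBS myometrium, with -0.12 ± 0.127. The interval of plus or minus 2 SE around the cervix value runs from -0.34 to 0.39. Wnt7a was close to the detection limit, with summed counts of 18 in hCG cervix, 5 in PBS cervix, 26 in hCG myometrium and 87 in PBS myometrium. No Wnt7a count was seen in 6 hCG cervix, 7 PBS cervix, 1 hCG myometrium and 2 PBS myometrium libraries, and a single library, PBS myometrium 8, reached 7.21 CPM. A count of 0 still allows a level of 0.12 CPM at the greatest depth and of 0.551 CPM at the least (a floor of 3 counts, which covers counting error alone).

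The secreted Frizzled-related proteins bind Wnt ligands outside the cell. Sfrp4 had 480.1, 640.1 and 868.4 CPM in the lowest, median and highest hCG myometrium library, against 337.1, 471.5 and 750.9 CPM in PBS myometrium. The groups overlapped and all 10 hCG libraries lay above the PBS median. The log2 fold change was 0.41 ± 0.136, and 0.29 ± 0.177 without the libraries rich in yolk sac markers. In cervix the mean and the median went opposite ways: the mean was 83.4 ± 40.7 CPM in hCG and 61.2 ± 26.3 CPM in PBS libraries, while the median was 59.9 CPM in hCG and 66.8 CPM in PBS libraries. Only 4 of 10 hCG cervix libraries lay above the PBS median of Sfrp4, and its log2 fold change of 0.46 ± 0.285 was smaller than 2 SE. Sfrp1 averaged 44.6 ± 9.49 CPM in hCG and 36.0 ± 8.37 CPM in PBS cervix, a log2 fold change of 0.32 ± 0.145. In myometrium single libraries set the value of Sfrp1. Library 5 had 46.7 CPM among hCG libraries with a median of 9.22 CPM, and library R3 had 38.3 CPM among PBS libraries with a median of 5.63 CPM. The log2 fold change of 0.47 ± 0.487 became -0.05 without hCG library 5 and 1.07 without PBS library R3.

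Nkd1, which binds Dishevelled and is induced by canonical signalling, did not follow Axin2. In cervix it had 1.88, 9.49 and 42.5 CPM in the lowest, median and highest hCG library, against 2.01, 5.31 and 13.4 CPM in PBS libraries. The groups overlapped and 8 of 10 hCG libraries lay above the PBS median. The log2 fold change of 0.93 ± 0.428 was 0.43 without hCG library 5, the library with the highest urothelium sum, and it was 1.64 ± 0.774 within the deeper and 0.29 ± 0.361 within the shallower libraries. In myometrium Nkd1 averaged 16.3 ± 3.74 CPM in hCG and 16.3 ± 5.84 CPM in PBS libraries, a log2 fold change of -0.01 ± 0.201. Lef1 was near the limit of detection, at 0.556 ± 0.498 CPM in hCG cervix, 0.228 ± 0.219 CPM in PBS cervix, 0.223 ± 0.233 CPM in hCG myometrium and 0.335 ± 0.332 CPM in PBS myometrium. The other genes of the TCF/LEF family were better represented: in PBS cervix Tcf7 averaged 4.39, Tcf7l2 1.78 and Tcf7l1 1.08 RPKM, beside 0.0259 RPKM for Lef1.

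**Figure D2:**
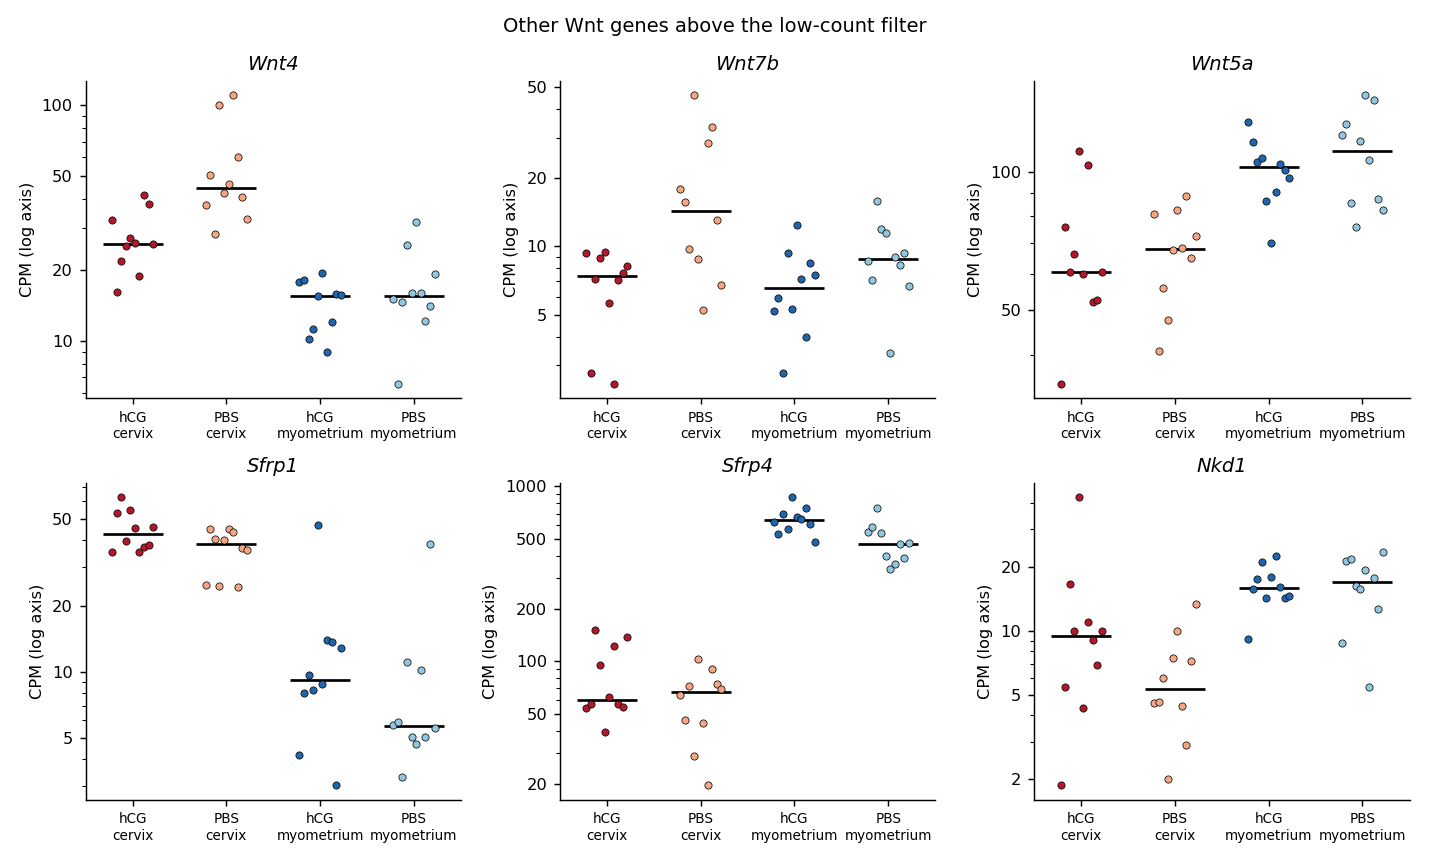
CPM on log axes of the other 6 genes above the low-count filter, with 1 point per library and a line at the group median. Wnt4 and Wnt7b are lower in hCG than in PBS cervix, Sfrp4 separates the tissues completely, and single high libraries stand out for Sfrp1 in myometrium and for Nkd1 in hCG cervix.

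All counts past the threshold come from the quasi-likelihood test of edgeR at a Benjamini-Hochberg adjusted p under 0.05 over all genes tested. In every comparison 8 of the 10 genes passed the filter on low counts, and Wnt7a and Lef1 did not. With hCG in cervix, 4.74% of all genes were past the threshold as higher and 4.17% as lower. In myometrium 0.00689% of all genes were past it as higher and 0.00689% as lower, which is 1 gene each way. DESeq2 called 384 genes there, and 2254 genes had an unadjusted edgeR p under 0.05. Since the values for hCG and PBS chose the 10 genes, their own calls with hCG are not given.

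The difference between the hCG responses of the tissues, cervix minus myometrium, was 0.14 ± 0.353 on the log2 scale for Axin2 and 0.00 ± 0.304 for Dkk3. It was -0.76 ± 0.328 for Wnt4, -1.01 ± 0.448 for Wnt7b and 0.93 ± 0.489 for Nkd1. These values come from the comparisons that chose the genes and are given without a test.

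Between the tissues the antagonists and ligands split in 2 directions. In PBS mice 4 of the 8 tested genes were higher in cervix than in myometrium (Dkk3, Sfrp1, Wnt4 and Wnt7b) and 3 were lower (Nkd1, Sfrp4 and Wnt5a), beside 28.1% of all genes as higher and 26.1% as lower. In hCG mice 3 were higher (Dkk3, Sfrp1 and Wnt4) and 2 lower (Sfrp4 and Wnt5a), beside 24.3% as higher and 19.4% as lower. In both treatments 3 of 3 endothelial and 5 of 5 yolk sac markers were lower in cervix too. Of the 6 fibroblast markers, 3 were lower and 0 higher in cervix in both treatments. Other lists were mixed. Of the leukocyte markers, 0 were higher and 3 lower in PBS mice, and 2 were higher and 3 lower in hCG mice. Of the 6 simple epithelium markers, 3 were higher and 2 lower in PBS mice, and 2 were higher and 1 lower in hCG mice. The smooth muscle markers summed to between 1010 and 24970 CPM in cervix and between 11660 and 25290 CPM in myometrium of hCG mice, and to between 1843 and 11540 CPM in cervix and between 12780 and 27910 CPM in myometrium of PBS mice. The part of these cells in the tissue differences was not tested.

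Sfrp4 had the largest tissue difference of the 8 genes. It averaged 83.4 ± 40.7 CPM in cervix and 646.7 ± 111 CPM in myometrium of hCG mice (log2 fold change -2.94 ± 0.235, edgeR adjusted p = 3.83e-09), and 61.2 ± 26.3 CPM in cervix and 486.1 ± 126.2 CPM in myometrium of PBS mice (-2.97 ± 0.247, edgeR adjusted p = 1.47e-09). In neither treatment did the tissues overlap. Sfrp1, its relative, ran the other way. It averaged 44.6 ± 9.49 CPM in cervix and 12.9 ± 12.4 CPM in myometrium of hCG mice (1.79 ± 0.347, edgeR adjusted p = 0.000289), and 36.0 ± 8.37 CPM in cervix and 9.48 ± 10.4 CPM in myometrium of PBS mice (1.95 ± 0.359, edgeR adjusted p = 9.21e-05). All 10 cervix libraries exceeded the myometrium median in each treatment, although the groups overlapped, and the Sfrp1 value in PBS mice was 2.55 without PBS myometrium library R3.

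Dkk3 was higher in cervix by 0.90 ± 0.219 on the log2 scale in hCG mice (edgeR adjusted p = 0.00223) and by 0.91 ± 0.159 in PBS mice (edgeR adjusted p = 5.23e-05). Wnt4 was higher in cervix by 0.93 ± 0.175 in hCG mice (edgeR adjusted p = 0.000213) and by 1.69 ± 0.273 in PBS mice (edgeR adjusted p = 2.00e-05). Wnt5a was lower in cervix, with log2 fold changes of -0.55 ± 0.163 in hCG mice (edgeR adjusted p = 0.0088) and -0.69 ± 0.1505 in PBS mice (edgeR adjusted p = 0.000545). All 10 cervix libraries of each treatment lay above the myometrium median for Dkk3 and Wnt4.

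Wnt7b and Nkd1 passed the threshold between tissues in PBS mice and not in hCG mice. Wnt7b had a tissue log2 fold change of 0.03 ± 0.264 in hCG mice (edgeR adjusted p = 0.943) and of 1.04 ± 0.345 in PBS mice (edgeR adjusted p = 0.0146, and 0.0457 without PBS cervix library 4). With limma voom and quality weights that value was 0.58, and it did not pass the threshold (adjusted p = 0.0906). Nkd1 had -0.45 ± 0.368 in hCG mice (edgeR adjusted p = 0.332) and -1.38 ± 0.293 in PBS mice (edgeR adjusted p = 0.000402). Without hCG cervix library 5 the Nkd1 value in hCG mice was -0.95 and past the threshold. The difference between the treatments is the same quantity as the difference of the hCG responses, which is given above for both genes as a description, without a test. Axin2 did not pass the threshold between the tissues, with a tissue log2 fold change of -0.02 ± 0.226 in hCG mice (edgeR adjusted p = 0.959) and -0.16 ± 0.257 in PBS mice (edgeR adjusted p = 0.622). The intervals of plus or minus 2 SE ran from -0.47 to 0.44 in hCG mice and from -0.67 to 0.35 in PBS mice.

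**Figure D3:**
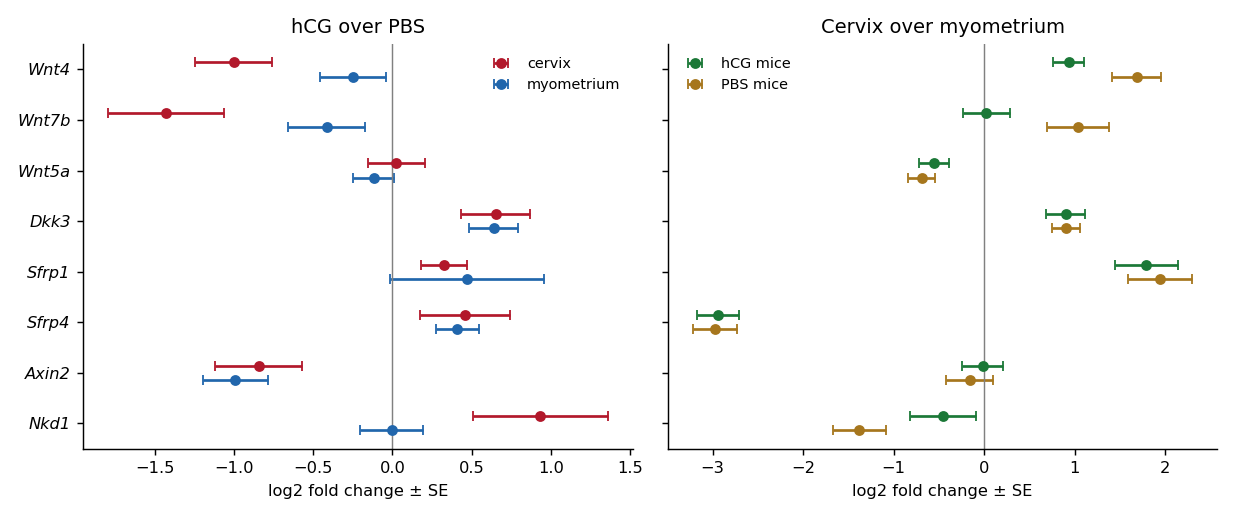
Log2 fold change ± SE of the 8 genes above the low-count filter. The left panel shows hCG over PBS in each tissue, and the right panel cervix over myometrium in each treatment. Axin2 and Dkk3 sit at nearly the same value in both tissues on the left, Wnt4 and Wnt7b lie at -1.002 and -1.43 in cervix, and Sfrp4 has the largest tissue difference, at -2.94 in hCG mice and -2.97 in PBS mice.

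A further 102 genes of the pathway were listed by role, and all were in the count table. In cervix 80 were tested, of which 3 rose and 7 fell with hCG, that is 3 of 80 beside 4.74% of all genes as higher and 7 of 80 beside 4.17% as lower, and the median log2 fold change was -0.0485, beside 0.00705 over all genes. By role, 1 of 7 ligands fell, 1 of 2 R-spondins rose, 3 of 22 receptors or co-receptors fell, 1 of 8 extracellular antagonists rose, 1 of 20 cytoplasmic transducers fell, 2 of 11 nuclear factors fell and 1 of 6 targets rose.

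The genes that rose encode secreted or cell surface proteins, as do Wnt10a, Fzd10 and Fzd6 among those that fell. Sfrp2, a secreted Wnt antagonist, averaged 19.97 ± 8.12 CPM in hCG and 9.85 ± 3.36 CPM in PBS cervix (log2 fold change 1.03 ± 0.246, edgeR adjusted p = 0.0283). Rspo3, a ligand that strengthens Wnt signalling by sparing Frizzled receptors from degradation, averaged 17.9 ± 17.1 CPM in hCG and 6.25 ± 3.54 CPM in PBS cervix (1.54 ± 0.461, edgeR adjusted p = 0.0423). Tnfrsf19, the target with a window at a downstream start shown above, averaged 44.7 ± 28.9 CPM in hCG and 19.5 ± 10.5 CPM in PBS cervix (1.21 ± 0.346, edgeR adjusted p = 0.0376). For each of the 3 genes 9 of 10 hCG libraries lay above the PBS median, and the groups overlapped.

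Among the genes that fell, the ligand Wnt10a averaged 2.31 ± 0.868 CPM in hCG and 5.33 ± 1.79 CPM in PBS cervix (-1.21 ± 0.259, edgeR adjusted p = 0.0263). The Frizzled receptor genes Fzd10 and Fzd6 fell as well, with 8.16 ± 4.48 CPM in hCG and 16.7 ± 7.30 CPM in PBS cervix for Fzd10 (-1.04 ± 0.317, edgeR adjusted p = 0.0448), and 60.2 ± 12.2 CPM in hCG and 91.3 ± 29.3 CPM in PBS cervix for Fzd6 (-0.59 ± 0.171, edgeR adjusted p = 0.0388). Vangl2, a planar cell polarity gene, fell by 1.005 ± 0.273 on the log2 scale (edgeR adjusted p = 0.0336). In the nucleus, Pygo2, a co-activator of beta-catenin, had a log2 fold change of -0.64 ± 0.142 (edgeR adjusted p = 0.0272) and Tle3, a co-repressor, one of -0.70 ± 0.159 (edgeR adjusted p = 0.0275). Ctnnbip1, an inhibitor that binds beta-catenin, averaged 17.0 ± 5.66 CPM in hCG and 48.5 ± 41.1 CPM in PBS cervix (-1.52 ± 0.377, edgeR adjusted p = 0.0298). All 10 hCG libraries lay below the PBS median for each of these genes other than Fzd10, for which 8 did. The squamous marker sums given above ran lower in the hCG libraries too, and their part in the values was not tested.

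These 10 calls rest on few libraries. Their number was 0 when hCG library 3 or PBS library 4, 7 or 8 was left out, 0 without PBS libraries 5 to 8 and 0 without hCG libraries 1, 3 and 5. It was 5 or 6 without hCG library 2, 5 or 7 or PBS library 2 or 10. It was 1 within the deeper libraries and 0 within the shallower ones, 7 with the depth class as a term and 13 with DESeq2. In myometrium 0 of 72 tested genes were past the edgeR threshold, while 24 had an unadjusted p under 0.05 and DESeq2 called 5. Of all 14517 genes tested there, 2254 had an unadjusted edgeR p under 0.05 and DESeq2 called 384. For the difference of the hCG responses between the tissues 0 of 80 tested genes were past the edgeR threshold. Over all genes 0.128% were past it as higher and 0.224% as lower. Of the 80, 14 had an unadjusted p under 0.05 and DESeq2 called 4. Of all 15624 genes tested, 3120 had such a p and DESeq2 called 570.

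Between cervix and myometrium, 42 of 75 tested pathway genes differed in PBS mice, with 22 higher and 20 lower in cervix, and 33 of 77 in hCG mice, with 21 higher and 12 lower. Over all genes tested 28.1% were higher and 26.1% lower in PBS mice, and 24.3% were higher and 19.4% lower in hCG mice, so these counts lie near the background. The 2 treatments share no library in these comparisons. Of these genes 27 were past the threshold in both treatments, all 27 in the same direction. That is 81.8% of the pathway genes called in hCG mice and 64.3% of those called in PBS mice. The same overlap was not computed over all genes, so nothing particular to the pathway is read from it. Among the genes higher in cervix, Rnf43 and Znrf3 encode the ubiquitin ligases that remove Frizzled receptors and are both Wnt targets. Rnf43 averaged 17.5 ± 5.41 CPM in cervix and 5.80 ± 1.04 CPM in myometrium of hCG mice (1.60 ± 0.180, edgeR adjusted p = 4.34e-07), and 22.3 ± 5.88 CPM in cervix and 6.22 ± 2.01 CPM in myometrium of PBS mice (1.85 ± 0.183, edgeR adjusted p = 2.23e-08). Znrf3 was higher in cervix by 0.997 ± 0.131 in hCG mice (edgeR adjusted p = 3.48e-06) and by 0.86 ± 0.184 in PBS mice (edgeR adjusted p = 0.000448).

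Fzd10 was the receptor with the widest gap. It averaged 8.16 ± 4.48 CPM in cervix and 0.419 ± 0.256 CPM in myometrium of hCG mice (log2 fold change 4.17 ± 0.399, edgeR adjusted p = 4.46e-08), and 16.7 ± 7.30 CPM in cervix and 0.313 ± 0.168 CPM in myometrium of PBS mice (5.68 ± 0.313, edgeR adjusted p = 1.96e-12). The tissues did not overlap. Both myometrium means of Fzd10 lie within the range of the detection floor, 0.12 to 0.551 CPM, so the size of these fold changes is uncertain. Fzd3 was higher in cervix by 1.58 ± 0.175 in hCG mice (edgeR adjusted p = 3.54e-07) and by 1.53 ± 0.172 in PBS mice (edgeR adjusted p = 1.38e-07). Fzd7 was the opposite, with 25.3 ± 17.6 CPM in cervix and 46.7 ± 10.7 CPM in myometrium of hCG mice (edgeR adjusted p = 0.0109), and 15.5 ± 4.05 CPM in cervix and 58.5 ± 15.8 CPM in myometrium of PBS mice (edgeR adjusted p = 1.16e-08).

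Among the ligands, Wnt10a was higher in cervix by 3.04 ± 0.624 in hCG mice (edgeR adjusted p = 0.000508) and by 3.81 ± 0.718 in PBS mice (edgeR adjusted p = 0.000118). Single myometrium libraries moved these Wnt10a values, to 3.67 in hCG mice without hCG library 10 and to 5.0 in PBS mice without PBS library 4. Wnt3a had no count in any of the 20 myometrium libraries, and averaged 1.38 ± 0.813 CPM in hCG and 2.47 ± 0.747 CPM in PBS cervix. Wnt16 was lower in cervix, with -1.24 ± 0.328 in hCG mice (edgeR adjusted p = 0.00435) and -1.49 ± 0.280 in PBS mice (edgeR adjusted p = 0.000118). The transcription factor gene Tcf7 and the target Myc were higher in cervix. Tcf7 had log2 fold changes of 1.87 ± 0.218 in hCG mice (edgeR adjusted p = 7.18e-07) and 1.94 ± 0.209 in PBS mice (edgeR adjusted p = 7.94e-08). Myc had 1.27 ± 0.210 in hCG mice (edgeR adjusted p = 5.31e-05) and 1.51 ± 0.172 in PBS mice (edgeR adjusted p = 1.70e-07).

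The antagonists were divided between the tissues in the same way as Sfrp1 and Sfrp4. Sfrp2 was higher in cervix by 2.74 ± 0.281 in hCG mice (edgeR adjusted p = 1.21e-07) and by 2.13 ± 0.218 in PBS mice (edgeR adjusted p = 3.74e-08). Frzb, another member of the secreted Frizzled-related family, averaged 6.11 ± 3.13 CPM in cervix and 39.1 ± 9.79 CPM in myometrium of hCG mice (-2.65 ± 0.241, edgeR adjusted p = 2.23e-08), and 4.93 ± 3.08 CPM in cervix and 25.9 ± 5.36 CPM in myometrium of PBS mice (-2.39 ± 0.293, edgeR adjusted p = 4.91e-07). Trabd2b, a protease that inactivates Wnt proteins, was also lower in cervix, with -1.63 ± 0.197 in hCG mice (edgeR adjusted p = 1.17e-06) and -1.62 ± 0.284 in PBS mice (edgeR adjusted p = 5.20e-05). The R-spondin gene Rspo1 and Mmp7, a metalloprotease gene of simple epithelia that is a Wnt target, were lower in cervix too. Mmp7 had a median of 2.87 CPM in cervix and 195.0 CPM in myometrium of hCG mice, and of 2.45 CPM in cervix and 171.3 CPM in myometrium of PBS mice.

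**Figure D4:**
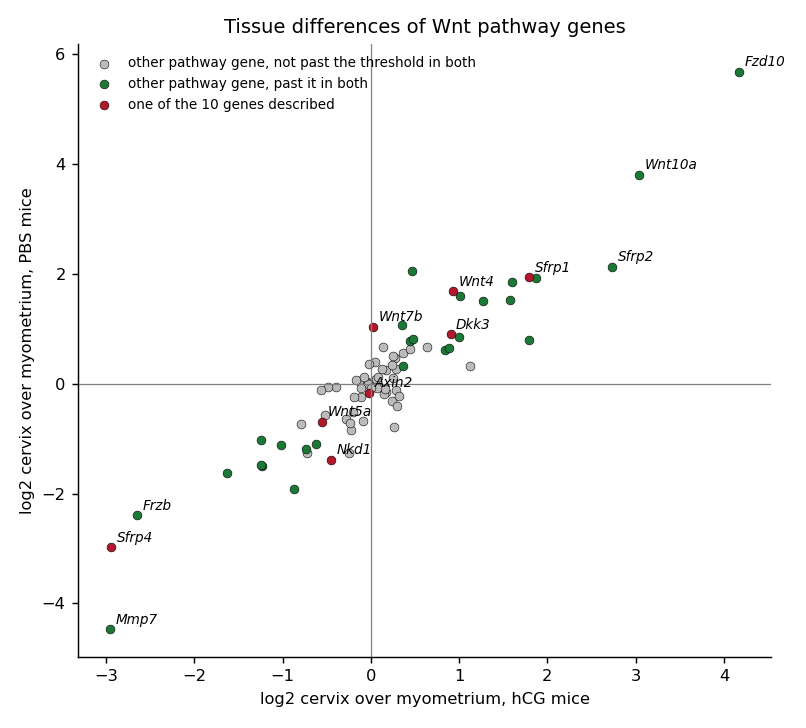
Log2 fold change of cervix over myometrium for each tested Wnt pathway gene, in hCG mice (horizontal axis) and in PBS mice (vertical axis), with 1 point per gene. The 27 other pathway genes past the threshold in both treatments lie in the lower left and upper right of the plot, from Mmp7 and Frzb to Fzd10, with Sfrp4 next to Frzb, and Axin2 near 0 on both axes.

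The genes whose levels followed Axin2 most closely over the 40 libraries, once each group's mean log2 CPM was subtracted, were Inhbb, Adamts4, Pde10a, Fam189a2 and Gadd45g, with Pearson's r of 0.80, 0.77, 0.77, 0.76 and 0.76 among 10238 genes ranked. Within single groups the r of Axin2 ran from 0.63 to 0.94 with Inhbb, which encodes a subunit of activin and inhibin, but fell as low as 0.19 with Adamts4, and the other 3 ranged from 0.54 to 0.96. For Dkk3 they were Ptgr1, Armh4, Rasa3, Cdc42ep3 and Niban1, with r of 0.82, 0.81, 0.79, 0.78 and 0.77, and within single groups the r ran from 0.17 to 0.93 with Ptgr1, from 0.44 to 0.95 with Armh4, from 0.77 to 0.93 with Rasa3, from 0.58 to 0.96 with Cdc42ep3 and from 0.17 to 0.97 with Niban1. These are the highest of many values over libraries that share depth and tissue makeup, and they are given as a description. Axin2 was also set against each of the other 9 genes within each group of 10 libraries, 36 relations in all. By permutation tests with 100000 resamples, 0 of the 36 had an adjusted p under 0.05 by Pearson's r or by Spearman's rho, the lowest adjusted p being 0.538 and 0.805. At an unadjusted p under 0.05 there were 2 by each measure.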

How the data were processed

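RNA-seq of 40 libraries (2 tissues, 2 treatments, 10 libraries per group) was deposited by the authors as 1 table of raw counts per gene, with 23079 mouse gene identifiers as rows. Alignment tool and genome, per the submitters' processing notes, were TopHat2 and GRCm38 (mm10). The sources used here give no counting tool, annotation, strand setting or trimming. Identifiers were matched to symbols in a RefSeq table of GRCm38.p6 (23008 matched; the 71 others held 0.197% of counts and stayed in library sizes).

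The deposited counts were the start of everything else. Low genes were removed with filterByExpr, and the rest scaled with TMM factors and tested with the robust quasi-likelihood F-test of edgeR (edgeR 4.0.16, limma 3.58.1, DESeq2 1.42.0, R 4.3.3), with Benjamini-Hochberg adjustment over all genes tested and a threshold of 0.05. Each comparison used its own 20 libraries, and the difference of the hCG responses all 40. Each SE was obtained from the log2 fold change and its F statistic, as their ratio after taking the root of F. CPM used TMM factors over the 40 libraries, and RPKM divided by the exon bases of GENCODE. The code was tested on simulated data.

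The 10 genes, the lists of 102 pathway genes and of cell markers, and the comparisons were chosen with earlier results of these data known. Named genes were the 10, up to 12 higher and 12 lower other pathway genes with the smallest p per comparison, and the 5 genes closest to Axin2 and to Dkk3. Of the tissue differences some are given only within counts, and TCF/LEF genes outside this rule were named after their values were seen. Alternatives were DESeq2, RLE and upper-quartile factors, other filters, no robust dispersion, voom with quality weights, a threshold of 0.1, a block on label number, depth class, and libraries left out. Leaving out the libraries rich in yolk sac markers (myometrium), the PBS libraries over 1% Lars2 (tissues) and hCG cervix libraries 1, 3 and 5 (tissues) was chosen after seeing the data.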

Additional observations from a re-analysis of the deposited data

Results flagged for a closer look

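In 40 groups of 10 libraries (10 genes in 4 groups), 7 held a highest library set apart from the rest by more of the group's range than the 95% critical value of Dixon's test. Chance flags about 1 in 20 groups of normally distributed values. CPM was screened on a linear scale and partly near the floor of detection, so the rate here may be higher and was not computed. Dkk3 at 202.4 CPM and Nkd1 at 42.53 CPM were both in hCG cervix library 5, where the next highest libraries had 79.1 and 16.6 CPM. That library also had 2305 CPM over the urothelium markers (group median 18.5) and 1065 CPM over the squamous markers (group median 5062), and their part in the 2 values was not tested. Sfrp1 stood apart at 46.66 CPM in hCG myometrium library 5 (next highest 13.9 CPM) and at 38.25 CPM in PBS myometrium library R3 (next highest 11.1 CPM). Both libraries were among those rich in yolk sac markers, with sums of 14490 and 12340 CPM. Wnt7a reached 7.207 CPM in PBS myometrium library 8, another library of that kind (11850 CPM), while the next highest had 1.33 CPM. Lef1 at 0.7412 CPM in PBS cervix library 7 and at 0.7426 CPM in hCG myometrium library 3 stood apart at levels near the floor of detection.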

How the results depend on the processing

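The direction of Axin2, Dkk3, Wnt4, Wnt7b and Nkd1 with hCG in cervix and of Axin2 and Dkk3 in myometrium held under the alternatives run, with ranges over tools and sample sets of -0.96 to -0.61, 0.30 to 0.90, -1.15 to -0.66, -1.66 to -1.01, 0.29 to 1.64, -1.24 to -0.76 and 0.54 to 0.75 on the log2 scale. Counts of genes called with hCG in cervix, 1331 in the report, were 242 in the deeper libraries, 0 in the shallower ones, 508 with depth class as a term, 2283 with DESeq2, 0 without hCG libraries 1, 3 and 5, 1 without PBS libraries 5 to 8 and 2891 at a threshold of 0.1. Leaving out single libraries gave 1 to 2065 genes, with 1 or 2 left without hCG library 3 or PBS library 4, 7 or 8, 381 to 834 without hCG library 2, 5, 7 or R3 or PBS library 10, and 2006 and 2065 without hCG libraries 9 and 10. For the other pathway genes in cervix, 10 in the report, the counts were 1, 0, 5 with voom and quality weights, 0, 0 and 19 at a threshold of 0.1 (in the order deeper, shallower, voom, without hCG libraries 1, 3 and 5, without PBS libraries 5 to 8, threshold), and 0 to 13 with single libraries left out. In myometrium the 2 genes became 384 with DESeq2, 0 with voom, 1 without libraries over 1% Lars2, 0 without libraries rich in yolk sac markers, 161 at 0.1 and 1 to 137 with single libraries left out, the highest being without PBS libraries 2 (137), 3 (90) and R3 (25). Other pathway genes there numbered 5 with DESeq2, 3 at 0.1 and 0 to 2 with single libraries left out. The difference of the hCG responses gave 570 genes with DESeq2, 24 without a filter, 0 with the label number as a replicate block and 741 at 0.1, against 55 in the report, and 4 and 5 other pathway genes with DESeq2 and at 0.1. The causes of these shifts were not tested.

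Upper-quartile factors moved the median log2 fold change of all genes in cervix to 0.07, from 0.00705, and split the called genes into 972 higher and 475 lower, beside 708 higher and 623 lower in the report. Between tissues, Wnt7b in PBS mice lost its call with voom and with the replicate block, and Nkd1 in hCG mice gained one with voom and without hCG cervix libraries 1, 3 and 5. Same-numbered libraries share only a number: their deviations from the group means correlated at over 0.1 for 4 of 9 shared numbers in cervix, 3 of 8 in myometrium, 5 of 9 in PBS mice and 3 of 9 in hCG mice. With the replicate block, 1172 genes were called with hCG in cervix, 2 in myometrium, 8147 between tissues in PBS mice and 5833 in hCG mice, and 8, 0, 44 and 34 of the other pathway genes. Of the shared numbers, 2 of 9 in cervix, 1 of 8 in myometrium, 3 of 9 in PBS mice and 2 of 9 in hCG mice correlated best with their own number. Depth limits Wnt7a and Lef1. Without the filter on low counts Wnt7a was also called lower in the cervix of PBS mice, against their myometrium (log2 fold change -4.45, edgeR adjusted p = 0.00126), on 5 counts in cervix and 87 in myometrium, and Lef1 did not pass between tissues in either treatment.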
